A study of Mus musculus with 4 samples.

Results

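Ncam1 and 9 related genes of neural cell adhesion were followed in cultured mouse neural stem cells labelled wild type or Olig1 KO. They were Ncam1, Ncam2, L1cam, Nrcam, Chl1, Cntn1, Cntn2, Nfasc, Cdh2 and St8sia2, and every probe set that the platform annotation assigned to 1 of them alone was taken. This gave 20 probe sets of 9 genes, out of 22626 probe sets and 12393 genes on the array. No probe set was assigned to Nfasc, the neurofascin gene, so it was not analysed here. The genes were chosen by the MAS5 signals of all 4 arrays as well as by name, so their values are a description and no test of them is given.

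The cells had been isolated at embryonic day 14.5 from the ganglionic eminences, which lie in the ventral forebrain and give rise to interneurons and early oligodendrocyte precursors. All were on a C57/Bl6 background and were grown as neural stem cells without serum and with EGF. There was 1 array from wild-type cells (WT) and there were 3 arrays from cells labelled Olig1 KO, here called KO replicates 1, 2 and 3. It is not stated in the labels whether these 3 were separate embryos or cultures, what part of Olig1 the allele lacks, or whether a sample pooled several embryos.

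The proteins of these genes hold neural cells to each other and guide growing processes. Ncam1, Ncam2, the L1 family (L1cam, Nrcam, Chl1, Nfasc) and the contactins (Cntn1, Cntn2) have immunoglobulin-like domains outside the cell, and the contactins are tied to the membrane by a lipid anchor. Cdh2 encodes N-cadherin, the calcium-dependent adhesion molecule of the neuroepithelium. Ncam1 protein is made as several splice forms. It is the main carrier of polysialic acid, a long sugar chain that weakens adhesion and that is added by the enzymes of St8sia2 and St8sia4.

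The arrays were not alike in ways that cut across genotype. The authors' scaling gave trimmed mean signals of about 500.2 on every array. Xist, an RNA made from the inactive X, had signals of 9480 (WT), 8472 (KO replicate 1), 161 (KO replicate 2) and 46.5 (KO replicate 3). Signals of the Y-linked Eif2s3y ran the other way, at 0.608, 1.53, 654 and 1160.5. Ribosomal 18S RNA split the arrays in the same way, with a median signal over its 3 control probe sets of 4.64, 7.24, 946 and 2823. The arrays therefore fall into a pair with high Xist and low 18S signal (WT and KO replicate 1) and a pair with low Xist and high 18S signal (KO replicates 2 and 3), called the high-Xist and low-Xist pairs for short, and genotype can be compared within a pair only between 2 arrays. Sample titles divide the same way. Those of KO replicates 2 and 3 carry the numbers 37 and 38, and the others carry none. Background, taken as the highest of 27 bacterial control probe sets with no target, was 30.5 in WT and 21.3, 39.99 and 87.8 in the KO arrays. The beta-actin 3'/5' ratio, a measure of RNA integrity, was 1.11 in WT and reached 1.82 in KO replicate 3. The same ratio for Gapdh was 0.76 in WT and 0.79, 1.03 and 0.84 in the KO arrays, so it was highest in KO replicate 2. The only Olig1 probe set gave 7618 in WT and 3840, 4438 and 8548 in the KO arrays. The place of that probe set relative to the deletion is not given in the sources used here, so it checks nothing about the labels. Sox2 and Nes, genes of a stem cell transcription factor and an intermediate filament, served as culture markers. The brightest probe set of each was above background on all 4 arrays. Another Nes probe set gave 19.2 in KO replicate 3, under that array's background. Of 10 neural stem and radial glia markers, Sox2 and Nes among them, 9 had a probe set above background on all 4 arrays.

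Of the 20 adhesion probe sets, 11 were above background on all 4 arrays, covering 8 genes. A further 6 were above it on some arrays and 3 on none. Over the whole array, 58.2% of probe sets were above background on all 4 arrays. No probe set of any gene passed the test between genotypes. In limma over 13575 probe sets, 0 were higher and 0 lower in KO at a Benjamini-Hochberg adjusted p under 0.05 (0.0% in each direction), and 324 had an unadjusted p under 0.05. With 1 WT array the spread comes from the KO arrays alone, so sizes below are given with the fitted standard error (SE). All differences are on the scale log2(signal + 14.4).

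Ncam1, the neural cell adhesion molecule gene, was measured by 6 probe sets, which disagreed. In 2 of them the WT signal lay below every KO array, in 1 it lay among the KO arrays, and the other 3 were at background on at least 1 array. Probe set 1426864_a_at gave a signal of 173 in WT and of 404, 429.5 and 397 in KO replicates 1, 2 and 3. The KO arrays were close to each other and all above WT, with a KO mean of 410.2 ± 17.1 (SD, n = 3). On the log2 scale KO differed from WT by 1.18 (SE 0.32), and the KO arrays spanned 0.11 on the same scale. This probe set is among the 22 on the array (0.167% of 13171 above background everywhere) in which WT was at least 1 log2 unit below each KO array. Since that contrast was in view when Ncam1 was listed, nothing is read from this share.

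Probe set 1426865_a_at of Ncam1, which has the same source sequence in the annotation as 1426864_a_at, gave 174 in WT and 289, 408 and 435 in the KO arrays. WT was again below all of them, but KO replicate 1 stood between WT and the other KO arrays. The KO mean was 377 ± 77.7 (SD, n = 3) and the log2 difference 1.04 (SE 0.37), with a range of 0.57 among the KO arrays. Against KO replicate 1, the array with similar Xist, the difference was 0.69 for 1426865_a_at and 1.16 for 1426864_a_at. For 1426865_a_at the low-Xist pair was thus farther from WT than KO replicate 1 was. For 1426864_a_at the 3 KO arrays were level.

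The third well-measured Ncam1 probe set, 1450437_a_at, showed no such gap between genotypes. It gave 263 in WT and 305, 213 and 231 in the KO arrays, a KO mean of 249.5 ± 48.7 (SD, n = 3) and a log2 difference of -0.09 (SE 0.36). WT lay inside the range of the KO arrays, and both high-Xist arrays lay above both low-Xist arrays. The suffix _a_at means that a probe set was designed to match several transcripts of the same gene. Which exons each one covers is not given in the sources used here, and whether the 3 measure different splice forms was not tested. The root-mean-square distance between probe sets, after centring each on its mean over the 4 arrays, was 0.22 log2 units between 1426864_a_at and 1426865_a_at. It was 0.58 and 0.62 between each of these and 1450437_a_at.

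The other Ncam1 probe sets carried little signal. Probe set 1450438_at gave 80.2 in WT and 77.3 and 92.0 in KO replicates 1 and 2, while in KO replicate 3 it gave 14.8, under the background of 87.8. These values place WT between KO replicates 1 and 2. Probe set 1421966_at ran from 4.67 to 13.3 and 1425126_at from 5.37 to 61.7, both at background on all 4 arrays, so neither has a fold change.

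**Figure D1:**
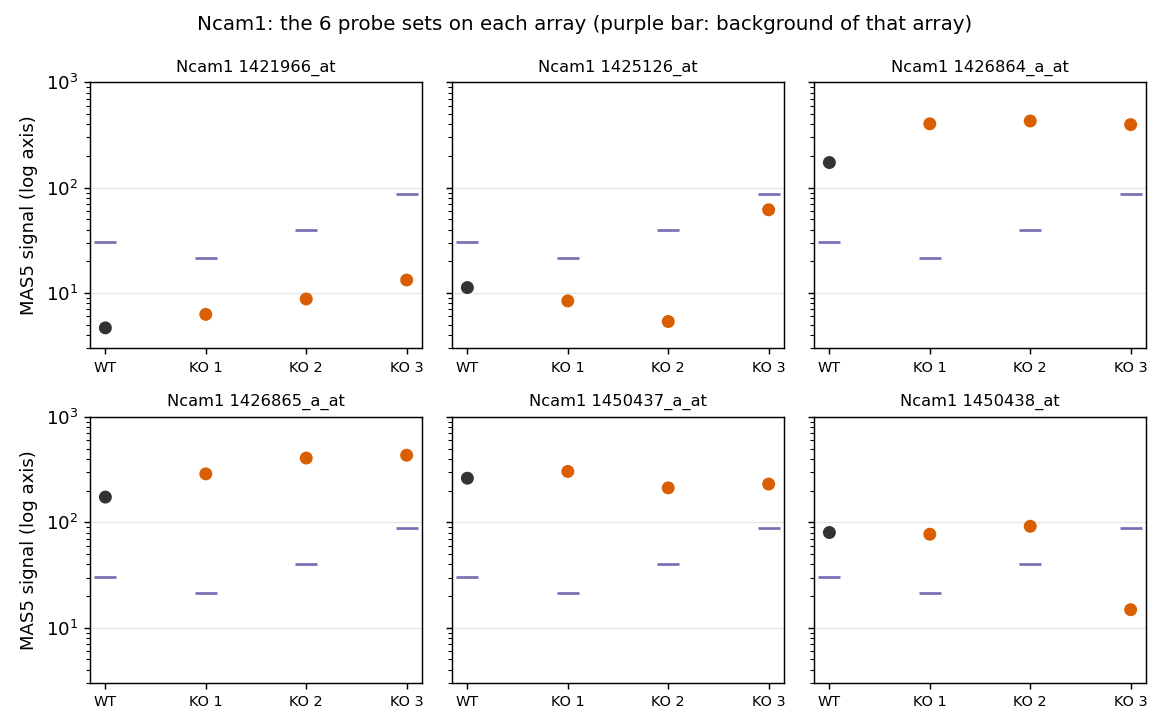
MAS5 signal (log axis) of the 6 Ncam1 probe sets on the WT array (black) and the KO arrays (orange), 1 point per array, with the background of each array as a purple bar. WT lies below all KO arrays for 1426864_a_at (173 against 397 or more) and 1426865_a_at (174 against 289 or more), and among them for 1450437_a_at.

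The patterns most like that of Ncam1 probe set 1426864_a_at were sought among 12119 probe sets of other single genes above background everywhere. It is the brightest Ncam1 probe set by mean log2 signal over the 4 arrays, 3 of them KO. On the WT array alone 1450437_a_at was brighter, at 263 against 173. Likeness was the root-mean-square distance of centred log2 values over the 4 arrays, and the 5 nearest genes were Tpm3, Lrrc3b, Tbc1d1, Vmn1r44 and Gdap1. Tpm3, a tropomyosin gene, was nearest at a distance of 0.063, with 393 in WT and 817, 905 and 902 in the KO arrays. Gdap1 was the fifth, at 0.094. With 4 arrays this describes shape only. Each gene is given by its nearest probe set alone, and its other probe sets, if any, are not shown. Lrrc3b was within a few units of background in WT, at 32.4 against 30.5.

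Ncam2, the olfactory relative of Ncam1, lies on chromosome 16, as does Olig1. Its best-measured probe set, 1425301_at, gave 131 in WT and 100.3, 105 and 181 in the KO arrays, a KO mean of 129 ± 45.0 (SD, n = 3). WT was between KO replicates 2 and 3, and the log2 difference was -0.06 (SE 0.42). The other probe sets of Ncam2 did not give a size. Probe set 1421592_at was at background on all 4 arrays. Probe set 1421593_at gave 31.8 in WT, just over that array's background of 30.5, and was at background on every KO array.

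Polysialic acid joins Ncam1 to St8sia2, whose enzyme builds the chain in the embryonic brain. Its probe set 1420377_at gave 125 in WT and 85.3, 132 and 102 in the KO arrays, with a KO mean of 106 ± 23.6 (SD, n = 3) and a log2 difference of -0.23 (SE 0.36). WT stood inside the KO range. Probe set 1449843_at gave 149 in WT and 89.4, 56.4 and 78.2 in the KO arrays, the last of them under the background of 87.8. Here WT was above every KO array, with log2 differences of -0.65 and -1.20 in KO replicates 1 and 2. The 2 probe sets thus placed KO replicate 2 on opposite sides of WT.

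Of 12 other genes of sialic acid metabolism, 11 were measured and 8 were above background on all arrays, and the KO arrays spanned 0.13 to 0.44 log2 units in these 8. WT was below every KO array for 3 of them (Nanp, Slc35a1 and Neu1) and above every KO array for 1 (St8sia5), with the brightest probe set of each. Another probe set of Slc35a1 and another of Neu1, above background everywhere, had WT inside the KO range, with differences of -0.06 and 0.12. Over the whole array these positions held for 24.0% and 21.7% of the probe sets above background everywhere. The median log2 difference of the 8 was 0.20, beside 0.01 over all such probe sets. St8sia4, the other polysialyltransferase gene acting on Ncam1, gave 163 in WT and 221, 218 and 159 in the KO arrays, with WT inside the KO range. Nanp, a phosphatase of sialic acid synthesis, had the largest difference of the list at 0.41 (SE 0.32). Its signals were 522 in WT and 653, 718 and 729 in the KO arrays.

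In the L1 family, Nrcam was the gene measured well on all arrays with WT above every KO array. It encodes an adhesion protein of axons and of nodes of Ranvier, and its only probe set, 1434709_at, gave 1475 in WT and 955, 469.7 and 707 in the KO arrays. WT was above every KO array, and KO replicate 1, the other high-Xist array, was the next highest. The KO mean was 711 ± 243 (SD, n = 3). The log2 difference was -1.10 (SE 0.45), while the KO arrays themselves differed up to 2.03-fold, and it was -0.62 against KO replicate 1 alone. Leaving out KO replicate 1 took it to -1.33.

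Beside Nrcam stand the neuron markers, since neurons carry much of this gene's product in brain. Of 12 neuron markers, 7 were above background on all 4 arrays, and their part in the Nrcam result was not tested. The summed signal of the 12 was 3696 in WT and 2398 to 3244 in the KO arrays, with none of the markers at background on every array. Without Map2 the sum was 1931 in WT and 1753 to 1805 in the KO arrays, so Map2 carried most of the gap. The members did not run together. Map2, a neuronal microtubule gene, gave 1766 in WT and 1447, 784 and 593 in the KO arrays, while Elavl4, a neuronal RNA-binding protein gene, gave 105 in WT and 273, 325 and 163. The other probe set of Map2 also had WT above every KO array (-1.36). The other Elavl4 probe sets gave 109 and 154 in WT, with KO replicates 1 and 2 higher. In KO replicate 3 they gave 76.3 and 63.4, under that array's background. In bulk RNA, fewer cells of a type and less RNA per cell cannot be told apart. Astrocyte markers summed to 5867 in WT and 4572 to 5477 in the KO arrays, with 5 of 7 above background everywhere. Taken singly, WT was above every KO array for 1 of the 5 (21.7% over the array) and inside the KO range for 4. Oligodendrocyte lineage markers summed to 2438 and 2349 to 4119, with 4 of 7 above background everywhere and the myelin gene Mog at background throughout. Mesenchyme and microglia markers were near background, with 1 of 8 and 1 of 7 above it everywhere.

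L1cam, the X-linked founder of the L1 family, was measured by 2 probe sets. Probe set 1450435_at gave 114 in WT and 106, 174 and 141 in the KO arrays, a KO mean of 140.5 ± 33.8 (SD, n = 3) and a log2 difference of 0.25 (SE 0.38). WT lay inside the KO range, and both high-Xist arrays lay below both low-Xist arrays. Probe set 1421958_at gave 39.5 in WT, above that array's background of 30.5, and 2.52, 12.7 and 2.55 in the KO arrays, all at background. That gives no fold change, because each KO signal was under its own array's background (21.3, 39.99 and 87.8). Its WT signal was above every KO signal, unlike that of 1450435_at. Chl1, the close homologue of L1, was dim, at 53.1 in WT and 67.9 in KO replicate 1, and at background in KO replicates 2 and 3 (37.9 and 63.3).

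Nrcam and St8sia2 are the members with a probe set in which WT was above every KO array and the background of every array. For St8sia2 this was 1449843_at, which was under background in KO replicate 3, while 1420377_at had WT inside the KO range. The sequence just upstream of a RefSeq start of each gene is shown here. Since the genes were picked by the genotype contrast, nothing about Olig1 is read from the windows. Olig1 belongs to the basic helix-loop-helix factors, a family known to bind the E-box, CANNTG, which reads the same on both strands. E-boxes are in capitals.
Nrcam upstream window, GRCm38.p6 chr12:44328635-44328884, plus strand: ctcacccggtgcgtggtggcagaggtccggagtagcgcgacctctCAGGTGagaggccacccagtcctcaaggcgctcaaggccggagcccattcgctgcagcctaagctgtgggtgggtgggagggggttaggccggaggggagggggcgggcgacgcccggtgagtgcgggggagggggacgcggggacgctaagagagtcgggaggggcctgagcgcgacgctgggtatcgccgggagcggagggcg
St8sia2 upstream window, GRCm38.p6 chr7:74013683-74013932, minus strand: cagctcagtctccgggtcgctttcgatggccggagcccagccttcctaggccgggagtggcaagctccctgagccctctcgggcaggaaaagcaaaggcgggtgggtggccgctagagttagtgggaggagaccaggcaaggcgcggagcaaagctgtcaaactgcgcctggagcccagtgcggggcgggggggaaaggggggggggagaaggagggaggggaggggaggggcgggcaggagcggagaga
Each window is the 250 bases before the start, read 5′ to 3′ on the gene's strand, from RefSeq's GRCm38.p6 annotation. The Nrcam window holds 1 E-box (CAGGTG) and the St8sia2 window holds 0. Windows were taken for 8 of the 10 genes, 12 in all. Ncam1 had no entry in the source, and Cdh2 was left out of the search, so the 12 do not cover every listed gene. Of the 12 windows, 5 held an E-box. Among all 32851 windows of this length, 66.2% held at least 1. A match of these letters is a description of the sequence, not a binding site.

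**Figure D2:**
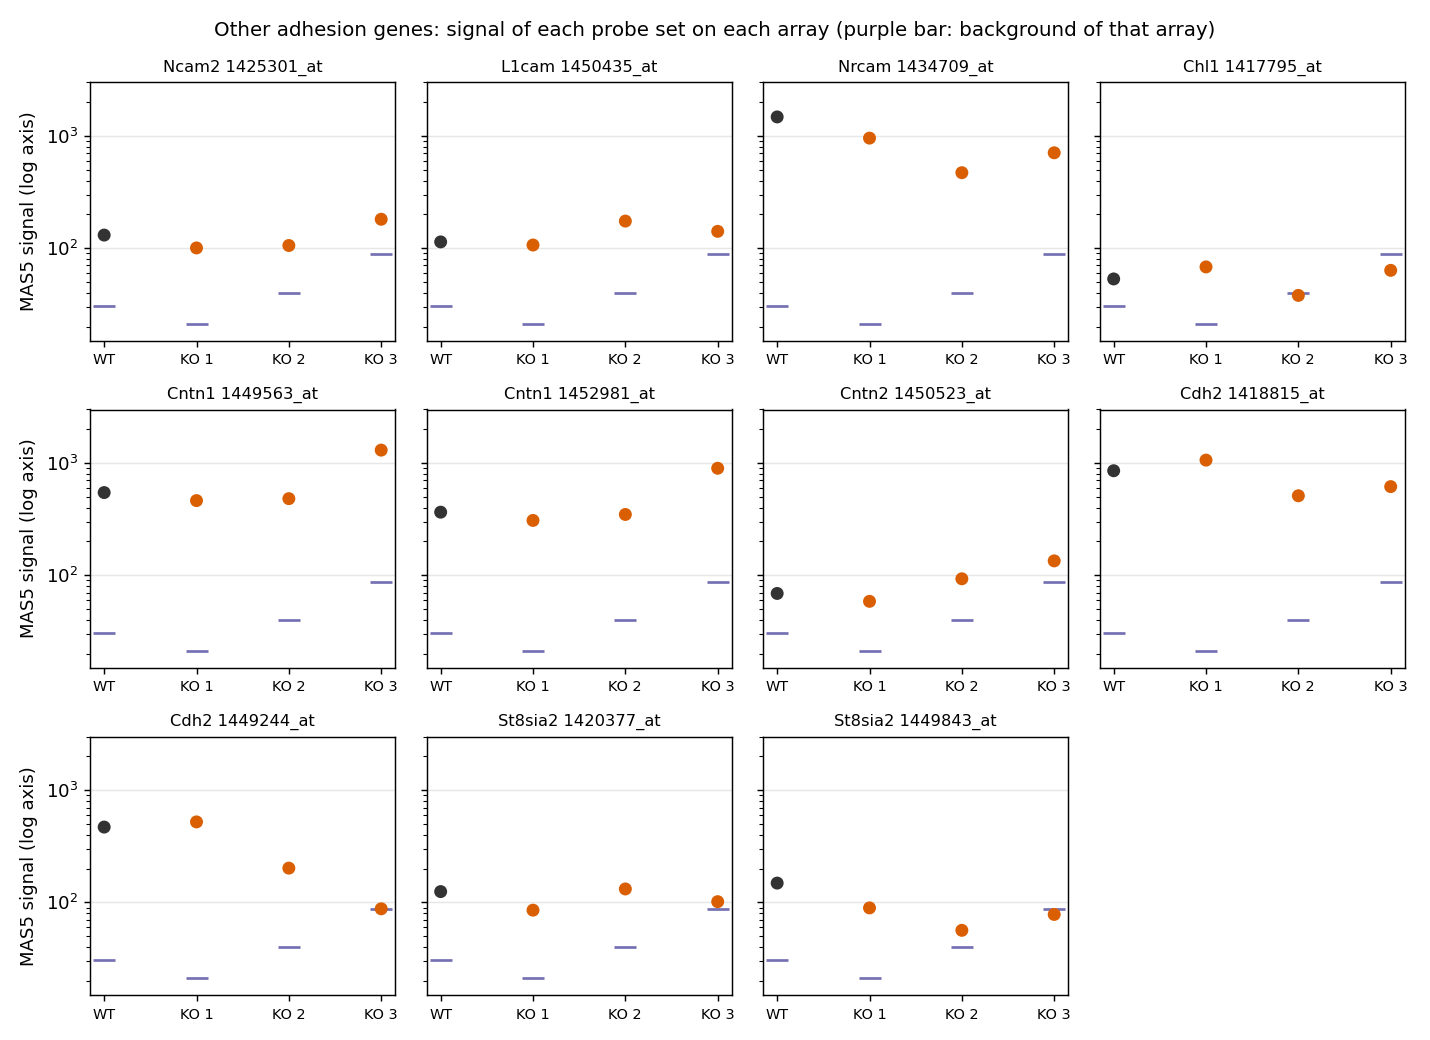
MAS5 signal (log axis) of 11 probe sets of the other adhesion genes on the WT array (black) and the KO arrays (orange), with each array's background as a purple bar; probe sets at background on 3 or more arrays are left out. WT is highest for Nrcam (1475) and for St8sia2 1449843_at (149), KO replicate 3 is highest for both Cntn1 probe sets, and Cdh2 is lower in KO replicates 2 and 3 than on the other arrays.

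Among the contactins, Cntn1 was set apart by KO replicate 3 and not by genotype. Cntn1 encodes a lipid-anchored partner of L1-type proteins and of Notch. Probe set 1449563_at gave 546 in WT and 463, 482 and 1304 in KO replicates 1, 2 and 3, and 1452981_at gave 365 and 308, 348 and 898. In both, WT and KO replicates 1 and 2 were close together and KO replicate 3 was well above them. The 2 probe sets had almost the same shape, at a root-mean-square distance of 0.045 log2 units.

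For Cntn1 the KO means were 749 ± 480.3 and 518 ± 329.9 (SD, n = 3), and the log2 differences 0.28 (SE 0.61) and 0.32 (SE 0.61). Without KO replicate 3 these became -0.20 and -0.15. KO replicate 3 was at least 1 log2 unit above every other array in 76 probe sets of the array (0.577%), and both Cntn1 probe sets were among them. Since the Cntn1 values were in view when that rule was set, nothing is read from this share. KO replicate 3 also had the highest background and the highest beta-actin 3'/5' ratio, though not the highest Gapdh ratio. The part of these in the Cntn1 value was not tested. Oligodendrocyte lineage markers were likewise highest there, at a summed 4119 against 2690 or less on the other arrays, and their part was not tested either. Most of that sum was 1 probe set of Cnp, a gene of myelinating cells, which gave 3283 in KO replicate 3 and 1944 in WT, while its other 2 gave 888 and 425 in KO replicate 3 and 1140.2 and 705 in WT. Without Cnp the sum was 836 in KO replicate 3 and 488 to 561 on the other arrays.

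Cntn2, the contactin of early axons also known as TAG-1, gave 68.8 in WT and 58.5, 93.0 and 134 in the KO arrays. WT was inside the KO range, and both high-Xist arrays lay below both low-Xist arrays. The KO mean was 95.3 ± 37.9 (SD, n = 3) and the log2 difference 0.34 (SE 0.45).

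Cdh2, the N-cadherin gene, split by the Xist and 18S pairs in both of its probe sets. Probe set 1418815_at gave 854 in WT and 1062, 511 and 616 in the KO arrays, and 1449244_at gave 469 and 522, 202 and 87.7. In each, WT and KO replicate 1 were above KO replicates 2 and 3. For 1418815_at the KO mean was 729.7 ± 292 (SD, n = 3) and the log2 difference -0.29 (SE 0.46), or 0.31 against KO replicate 1 alone, so the sign turned within the high-Xist pair. For 1449244_at the KO replicate 3 signal of 87.7 was just under that array's background of 87.8, and the difference against KO replicate 1 was 0.15. Whatever sets the pairs apart cannot be told apart from genotype in the low-Xist, high-18S pair, which holds no WT array.

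Over the 11 probe sets above background everywhere, WT was below every KO array in 2 (both of Ncam1), above every KO array in 1 (Nrcam) and inside their range in 8. Across all 13171 such probe sets on the array, WT was below every KO array in 24.0% and above every KO array in 21.7%. The difference between genotypes was larger than the range of the KO arrays in 3 of the 11, and in 17.8% of all. The median log2 difference of the 11 was 0.25, beside 0.01 for all, and it was -0.15 without KO replicate 3. The 11 are not independent, since 3 belong to Ncam1 and 2 to Cntn1.

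The Xist pairs separated 6 of the 11 and left 5 overlapping. The high-Xist arrays were both above the low-Xist arrays in 3 of the 11 (Ncam1 1450437_a_at, Nrcam and Cdh2), where 26.2% of all probe sets were. They were both below in 3 (Ncam1 1426865_a_at, L1cam and Cntn2), where 27.8% of all were. The median absolute log2 difference of the 11 probe sets was 0.31, 0.37 and 0.84 between WT and KO replicates 1, 2 and 3, beside 0.20, 0.31 and 0.40 over all probe sets.

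**Figure D3:**
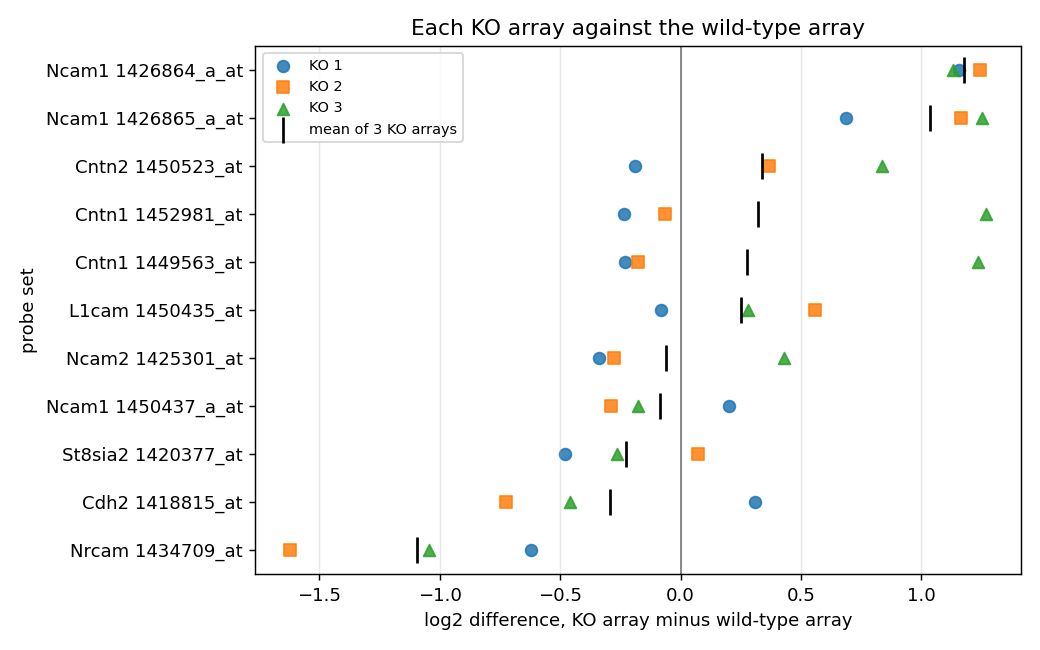
Log2 difference of each KO array from the WT array (circle, square and triangle for KO replicates 1, 2 and 3) and of the KO mean (black bar) for the 11 adhesion probe sets above background on all 4 arrays. All 3 KO arrays lie right of zero for Ncam1 1426864_a_at and 1426865_a_at and left of it for Nrcam, and they straddle zero for the other 8.

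Other adhesion genes of the same protein classes were described from lists of names. Of 30 further immunoglobulin-type adhesion genes, 23 were measured and 12 were above background everywhere. WT was above every KO array for 2 of the 12, Thy1 and Ntm, and below every KO array for 0, beside 21.7% and 24.0% over the array. The other probe set of Ntm had WT inside the KO range. The median log2 difference was -0.16, beside 0.01 for all. Thy1, a lipid-anchored glycoprotein of neurons, had the largest difference, with 1017 in WT and 916, 527 and 582 in the KO arrays (-0.62, SE 0.41). Cadm4, a cell adhesion gene of glia, gave 2063 in WT and 1155, 1162 and 2082 in the KO arrays, so KO replicate 3 was level with WT. Dscam and Alcam were highest in KO replicate 3, with differences of 0.44 each for the brightest probe set and 0.15 and -0.07 for their other one. Bsg and Nptn, which encode the related proteins basigin and neuroplastin, differed by -0.26 and -0.13, inside the KO range.

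Among 26 other cadherins, 17 were measured and 9 were above background everywhere, with WT above every KO array for 4 and below every KO array for 1, where 21.7% and 24.0% of all probe sets were. The median log2 difference was -0.35, beside 0.01 for all. Cdh11, the cadherin of mesenchyme and of some neural precursors, gave 464 in WT and 205, 93.3 and 310.2 in the KO arrays, a difference of -1.28 (SE 0.60) beside a KO range of 1.59. Cdh10 gave 891 in WT and 644, 539 and 590.4 in the KO arrays (-0.58, SE 0.33), and its KO arrays spanned 0.25. Pcdh10 differed by -0.47 and, with its other probe set, by -0.49. Pcdh18 was the member with WT lowest, at 51.8 against 55.8 to 131, and its other probe sets were at background on 3 or more arrays. Cdh4, which encodes R-cadherin, differed by 0.14 with WT inside the KO range.

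The proteins that carry these receptors' signals inside the cell were also measured. Of 21 catenin, ankyrin, spectrin and signalling genes, 20 were measured and 15 were above background everywhere. With the brightest probe set of each gene, WT was below every KO array for 3 (Ctnnb1, Fyn and Sptbn1; 24.0% over the array) and above every KO array for 0 (21.7% over the array), with a median difference of -0.07. Fyn, the kinase that acts downstream of Ncam1, gave 2869 in WT and 3338, 4579 and 3167 in the KO arrays (0.34, SE 0.37). Ctnnb1, the beta-catenin gene whose protein binds N-cadherin, gave 8199 in WT and 8219, 8884 and 8598 in the KO arrays with its brightest probe set (0.06, SE 0.32). Its other 2 probe sets had WT above every KO array instead, with differences of -0.66 and -0.75, and the other probe set of Fyn had WT inside the KO range. Sptbn1 gave 0.32 with its brightest probe set. Its others above background everywhere gave 0.42, with WT inside the KO range, and 1.09 and 0.62, with WT below every KO array. The probe set at 0.62 was dim, at 38.0 in WT. Among the brightest probe sets, the largest differences were those of Ctnna2, Ezr, Kif5b and Dcx, from -0.52 to -0.48, each with WT inside the KO range. Kif5b gave -0.06 to 0.69 with its other 4 probe sets and Ezr gave 0.09 with its other one.

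**Figure D4:**
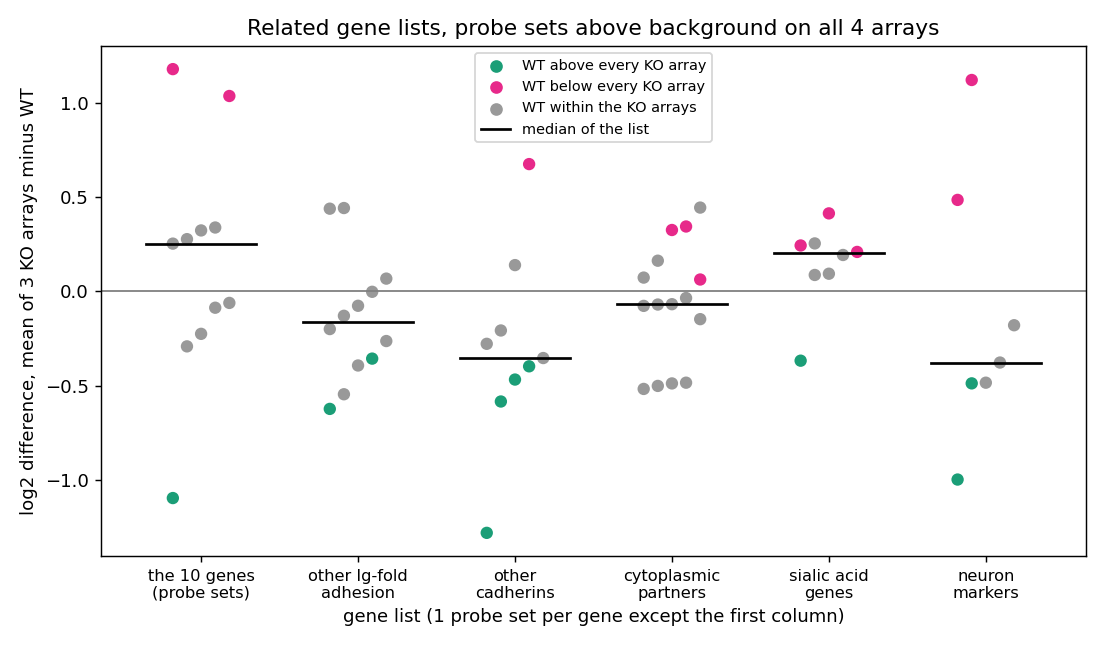
Log2 difference of the KO mean from WT for the 11 adhesion probe sets and, with 1 probe set per gene, for the other lists of adhesion, cadherin, cytoplasmic partner and sialic acid genes and neuron markers. Points are coloured by the position of the WT array relative to the KO arrays and the black line is the list's median, 0.25 for the adhesion probe sets, -0.35 for the other cadherins and 0.20 for the sialic acid genes.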

How the data were processed

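Each sample was 1 Affymetrix array, hybridised with biotin-labelled cRNA made from 6 µg of Trizol-extracted RNA, per the labels' protocols. The deposited intensities are linear MAS5 signals, per the submitters' processing notes, and the MAS5 version and target signal are not given there. The trimmed mean (2% off each tail) was about 500.2 on every array, and no further normalization was applied. The number of arrays limits the precision.

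Probe sets were named from the platform's annotation, with symbols updated through a RefSeq table of GRCm38.p6. Of 22690 probe sets, 64 were controls and were left out; of the rest, 20380 had 1 symbol, 691 several and 1555 none. Signals were turned into log2(signal + 14.4), the pseudocount being 0.1 times the median of all values, which understates changes of dim probe sets. The 40% of probe sets with the lowest mean were left out of the fit, but not out of the description. KO and WT were compared with limma 3.58.1 (R 4.3.3; lmFit and eBayes, two-sided, 2 residual and 4.75 prior degrees of freedom). WT is assumed to vary like KO, and the p-values reflect the spread among KO samples alone, which may be technical. For related lists, each gene had its brightest probe set, and the up to 4 genes with the largest difference and up to 2 brightest could be named. All probe sets of the 10 genes are described, and the 5 genes nearest in pattern to Ncam1 1426864_a_at are named. The members, lists and rules were chosen with earlier results of these data known.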

Additional observations from a re-analysis of the deposited data

How the results depend on the processing

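Under quantile normalization, scaling to equal medians, other pseudocounts, no filter, 1 probe set per gene and eBayes with trend and robust settings, the count of probe sets called over the whole array stayed at 0, and so it did with the array pair as a block. Leaving out 1 KO array gave 0 to 5. The 5 were called without KO replicate 1, and none of them is an adhesion probe set; they include Xist and Eif2s3y. With the 95th percentile of the bacterial probe sets as background, 13 adhesion probe sets were above it everywhere. The count with WT above every KO array was 2 to 4 when 1 KO array was left out, and 3 when probe sets above background on at least 1 array were taken. The count with WT below every KO array was 2 to 4 when 1 KO array was left out, the 4 without KO replicate 1. Fewer KO arrays leave a narrower range to lie outside of. The median log2 difference of the adhesion probe sets was -0.15 to 0.42 when 1 KO array was left out, the lowest without KO replicate 3. It was -0.087 over probe sets above background on at least 1 array, and -0.19 both within the pair of WT and KO replicate 1 and with the array pair as a block. The block and the within-pair comparison are the same contrast, because the low-Xist pair holds no WT array. The filter leaves the difference of a probe set unchanged, so it is no separate check of a sign. The sign held under every alternative for 4 of 11 probe sets and turned under at least 1 for the other 7. The 4 were Ncam1 1426864_a_at (0.97 to 1.24) and 1426865_a_at (0.69 to 1.21), Nrcam (-1.33 to -0.62) and St8sia2 1420377_at (-0.48 to -0.10). For both Ncam1 probe sets and Nrcam, WT lay outside all 3 KO arrays. Leaving out a KO array, taking KO replicate 1 alone or changing the pseudocount therefore could not turn their sign. Every alternative also used the same WT array. No paired analysis was possible because the labels give WT and KO no shared replicate numbers; the pair of arrays used as a block came from the Xist signals. Differences of dim probe sets are limited by the background of KO replicate 3.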

Other observations

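Probe sets of the same gene also disagreed outside the adhesion genes, in genes picked here after their values were seen. The beta-catenin gene Ctnnb1 differed by 0.06 with its brightest probe set, but by -0.66 and -0.75 with its others. The probe set at -0.75 gave 2130 in WT and 1878, 1460 and 726 in KO replicates 1, 2 and 3, and the other gave 4505 and 4358, 2916 and 1825. In both, WT was close to KO replicate 1 and KO replicate 3 was lowest, whereas the brightest probe set was nearly level over the 4 arrays. Kif5b, a kinesin motor gene, differed by -0.49 with its brightest probe set, where KO replicate 3 gave 1433 against 3289 in WT. Its other 4 probe sets differed by -0.06 to 0.69, and the last of these gave 613 in WT and 812, 1166 and 1051 in the KO arrays. Which parts of the transcripts these probe sets cover is not given in the sources used here.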
